A study of Mus musculus with 32 samples.

Results

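Wild-type (wt) mouse retina was compared between postnatal day 4 (P4) and P2. The comparison took the 4 arrays labelled wt P4 and the 4 labelled wt P2 by their labels alone, 8 of the 32 arrays of the series, and used every probe set except the Affymetrix controls: 22626 of 22690. The series followed retinas of mice homozygous for the wt allele or for the linked rd1 and light ear (le) mutations, on a C57BL/6 background over P2, P4, P6 and P8, and each of the 8 combinations of genotype and age has 4 arrays. The wt groups used here were therefore untreated wt mice at P4, P2 and, for comparison, P6 and P8, and the rd1 groups were untreated rd1/le mice at P4 and P2. Each sample pooled 8 to 14 retinas and was hybridised to 1 MOE430A array, and the sources used here do not say whether the pools of a group were separate litters. The limma p-values therefore measure only the spread between pools within the 8 groups, estimated over all 32 arrays, and this spread may be technical. Differences are given on the log2 scale as wt P4 minus wt P2, so a difference of 1 is a doubling. Members of the gene lists that are named by a difference alone were chosen after their values were seen. A probe set was called when its adjusted p from limma was under 0.05.

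In the first postnatal days the mouse retina finishes its last cell divisions. Most of the cells born then become rods, and bipolar cells and Müller glia are also born at this stage. Rods make their phototransduction proteins before outer segments are built, under transcription factors such as Crx, Nrl and Otx2, while cell division depends on DNA replication factors and on kinases, motors and checkpoint proteins of mitosis. Because whole retinas were used, fewer cells of a type and less RNA per cell cannot be told apart.

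Of the rod genes measured, 22 of 33 were called higher at P4 and none lower, against 9.41% and 7.79% of all genes. Of the mitosis genes 42 of 51 were called lower and none higher. For this reason 3 promoters of each direction are shown, to set their letters beside the levels given further on. The sequences are RefSeq windows of GRCm38.p6, 250 bases before to 50 after the annotated start, written 5′ to 3′ on the gene's strand. In the rod promoters, capitals mark TAATCC or its reverse complement GGATTA, letters that Crx and Otx2 are known to bind. The windows are Sag on the plus strand at chr1:87803430-87803729, Cnga1 on the minus strand at chr5:72642703-72643002 and Gngt1 on the plus strand at chr6:3993758-3994057.
Sag: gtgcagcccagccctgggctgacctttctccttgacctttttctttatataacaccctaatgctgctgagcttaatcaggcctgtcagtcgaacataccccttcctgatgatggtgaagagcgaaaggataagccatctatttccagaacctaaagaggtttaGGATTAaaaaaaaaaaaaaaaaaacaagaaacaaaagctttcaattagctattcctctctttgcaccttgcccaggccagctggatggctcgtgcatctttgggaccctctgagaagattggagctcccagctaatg
Cnga1: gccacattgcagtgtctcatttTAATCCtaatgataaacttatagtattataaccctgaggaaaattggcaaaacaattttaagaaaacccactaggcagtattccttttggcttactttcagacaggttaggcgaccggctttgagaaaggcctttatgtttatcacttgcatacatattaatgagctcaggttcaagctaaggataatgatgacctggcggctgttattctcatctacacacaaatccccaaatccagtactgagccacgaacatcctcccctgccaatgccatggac
Gngt1: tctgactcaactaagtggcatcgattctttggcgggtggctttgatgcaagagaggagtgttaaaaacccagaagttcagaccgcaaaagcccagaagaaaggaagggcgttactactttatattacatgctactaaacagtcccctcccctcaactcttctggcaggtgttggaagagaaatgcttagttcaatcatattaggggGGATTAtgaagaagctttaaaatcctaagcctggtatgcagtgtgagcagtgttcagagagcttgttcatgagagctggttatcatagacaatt

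In the cell cycle promoters, capitals mark CCAAT, a letter run bound by NF-Y, and TTTGAA, the letters of the cell cycle homology region, on either strand (ATTGG and TTCAAA). None of the marked letters overlapped each other. The windows are Plk1 on the plus strand at chr7:122159185-122159484, Bub1b on the plus strand at chr2:118597961-118598260 and Mcm3 on the minus strand at chr1:20820263-20820562.
Plk1: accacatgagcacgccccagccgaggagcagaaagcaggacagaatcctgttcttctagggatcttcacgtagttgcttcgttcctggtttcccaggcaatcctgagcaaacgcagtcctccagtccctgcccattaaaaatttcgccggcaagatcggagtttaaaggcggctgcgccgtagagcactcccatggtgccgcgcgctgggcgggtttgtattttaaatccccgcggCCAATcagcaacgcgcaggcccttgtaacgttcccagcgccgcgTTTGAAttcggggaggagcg
Bub1b: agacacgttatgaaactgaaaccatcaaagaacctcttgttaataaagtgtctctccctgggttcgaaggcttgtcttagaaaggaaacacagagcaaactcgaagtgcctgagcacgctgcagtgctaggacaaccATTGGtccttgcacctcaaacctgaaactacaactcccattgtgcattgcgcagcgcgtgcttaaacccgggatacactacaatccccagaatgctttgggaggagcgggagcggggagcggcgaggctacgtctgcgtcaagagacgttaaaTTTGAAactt
Mcm3: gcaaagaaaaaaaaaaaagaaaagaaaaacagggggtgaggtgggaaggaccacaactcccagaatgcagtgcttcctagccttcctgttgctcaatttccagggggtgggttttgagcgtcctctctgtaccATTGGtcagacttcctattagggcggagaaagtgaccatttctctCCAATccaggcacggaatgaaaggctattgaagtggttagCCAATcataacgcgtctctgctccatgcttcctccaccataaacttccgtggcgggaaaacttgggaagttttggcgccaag

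Of the 22 rod genes called higher, 18 had a window in the table, and 9 of these (50%) held TAATCC, against 7.16% of the windows of all 27025 genes in the table. Of the 42 mitosis genes called lower, 34 had a window, of which 24 (70.6%) held TTTGAA and 24 (70.6%) held CCAAT, against 18.1% and 37.9% of all windows. No window of these 34 genes held TAATCC. Of the 31 replication genes called lower, 27 had a window, of which 15 (55.6%) held CCAAT, 4 (14.8%) TTTGAA and 1 (3.7%) TAATCC. The rod windows held CCAAT in 9 of 18 cases (50%) and TTTGAA in 2 (11.1%). These are letter matches and were not tested, and a window without a match says only that the letters are not in it.

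Over all probe sets, 1871 were called higher at P4 (8.27%) and 1923 lower (8.50%), 3794 in all (16.8%). With a fold of 1.5 or more as well, 1081 (4.78%) were higher and 1107 (4.89%) lower. The difference reached 2 on the log2 scale, a fold of 4 or more, in 32 called probe sets in the upward and 30 in the downward direction. At an unadjusted p under 0.05 there were 7545. The median difference over all probe sets was -0.07, and it ran with brightness: with the probe sets cut into 3 equal parts it was -0.11 in the dimmest, -0.06 in the middle and 0.06 in the brightest. In the dimmest part 31 probe sets were called higher and 473 lower, and in the brightest 1251 higher and 648 lower. In 34 of the probe sets called higher and 428 of those called lower, both group means lay at or under 4.89, the highest signal of the Bacillus control probe sets, which match no mouse transcript.

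**Figure D1:**
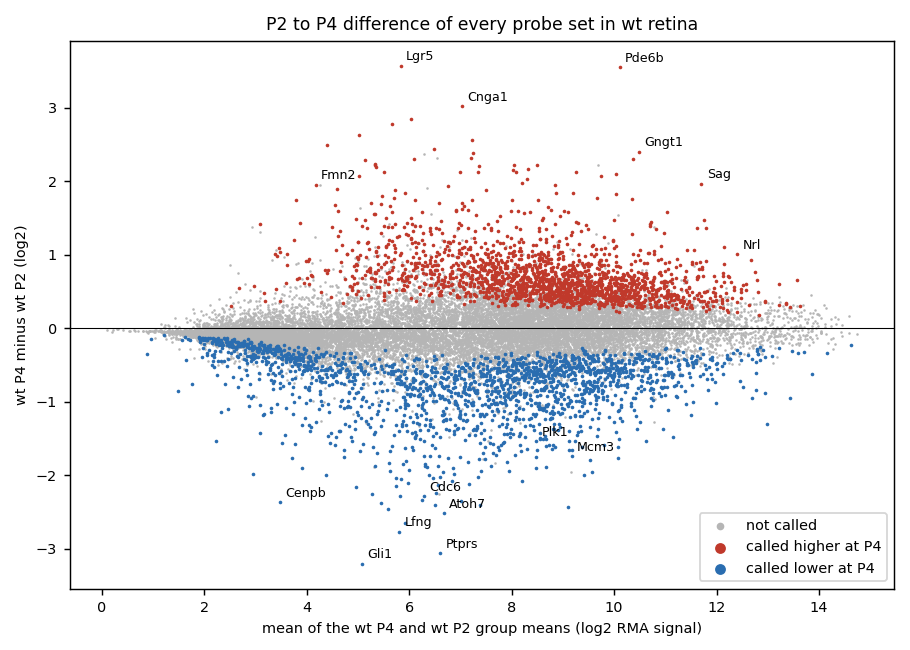
Difference between wt P4 and wt P2 (vertical axis, log2) against the mean of both group means (horizontal axis, log2 signal) for 22626 probe sets, with those called higher at P4 in red and those called lower in blue. Lgr5 and Pde6b stand at the top with 3.58 and 3.55 and Gli1 at the bottom with -3.20, and the dim called probe sets at the left lie mostly below 0.

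Markers of retina were present on every array: Otx2, Nrl and Crx of photoreceptor precursors lay at 11.70 or more on all 8 wt arrays, while 5 of the 6 red blood cell genes lay at background at both ages. Correlations across probe sets were 0.994 to 0.996 within wt P4, 0.989 to 0.998 within wt P2 and 0.980 to 0.992 between both, so the least alike wt P2 arrays were less alike than some pairs across ages. The wt P2 arrays split in pairs: the transferrin receptor control (3′ minus 5′) was 2.68 and 2.66 on arrays 1 and 2 and 1.68 and 1.03 on arrays 3 and 4, against 2.51 to 2.73 on the wt P4 arrays. The third principal component parted the same pairs, with 16.1 and 12.5 against -17.4 and -21.9. The actin control, whose 3′ minus 5′ signal rises as RNA shortens, gave 1.32, 1.19, 1.22 and 1.24 on the wt P4 arrays and 0.87, 0.85, 0.88 and 0.79 on the wt P2 arrays, without overlap. The 18S ribosomal RNA control was 4.66, 6.07, 4.83 and 8.90 on wt P4 arrays 1 to 4, and 4.50 to 5.44 on the wt P2 arrays. Both controls moved with age or with single arrays, and their part in the differences was not tested. Leaving out wt P4 arrays 2 and 4 together gave 1096 probe sets higher and 863 lower.

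The genotype labels at P2 are in doubt, which bears on every difference here. Pde6b, the rod phosphodiesterase subunit mutated in rd1, was 11.68, 11.82, 12.38 and 11.65 on the wt P4 arrays and 6.96, 7.19, 9.42 and 9.76 on wt P2 arrays 1 to 4. The rd1-labelled P2 arrays gave 7.0, 9.18, 9.24 and 6.84. Rabac1, which encodes prenylated Rab acceptor 1, split the P2 arrays the same way: 9.92, 10.38, 10.26 and 10.26 at wt P4, 8.40, 8.24, 10.14 and 10.40 at wt P2, and 7.08, 9.88, 9.98 and 6.95 on the rd1-labelled P2 arrays. In both genes wt P2 arrays 1 and 2 were low and rd1-labelled P2 arrays 2 and 3 high, against what the labels would give. The labels were kept, and every gene named was also set against all 8 P2 arrays. The Gapdh control (3′ minus 5′) was 1.54 and 1.57 on rd1-labelled P2 arrays 1 and 4, and 0.05 and 0.13 on arrays 2 and 3. On the wt P2 and wt P4 arrays it was 0.09 to 0.48. The third principal component was -35.3 and -50.5 on rd1-labelled P2 arrays 1 and 4. The part of RNA quality in the check against all 8 P2 arrays was not tested. Of the probe sets called, 1108 of 1871 lay above all 8 P2 arrays on every wt P4 array and 1171 of 1923 below all 8. Over all 22626 probe sets these shares were 5.70% above and 16.3% below, and against the 4 wt P2 arrays alone 9.82% and 23.3%. When the mean of both P2 groups took the place of wt P2, 3542 of the 3794 calls were made again in the same direction, among 2363 higher and 4326 lower. This comparison reuses the wt P4 and wt P2 arrays, so it is no independent check of the P2 labels.

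**Figure D2:**
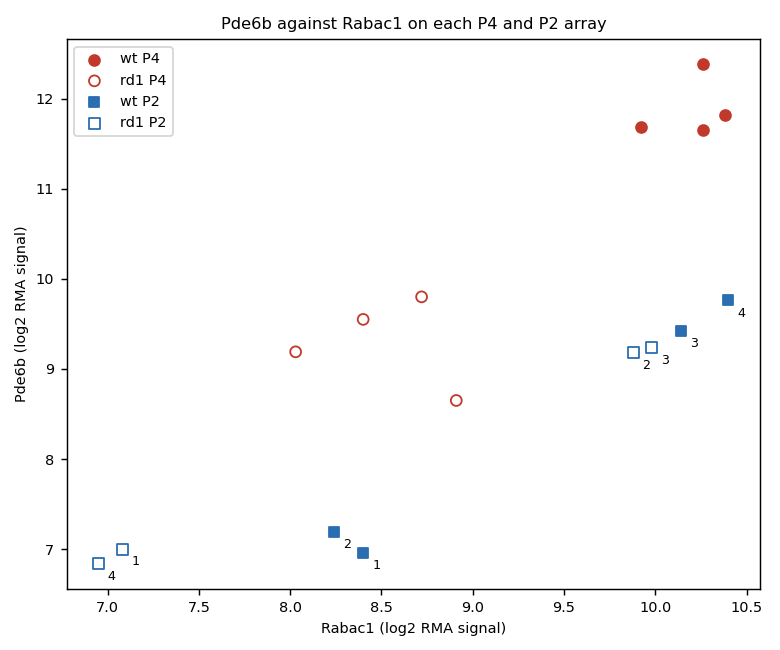
Pde6b (vertical axis, log2 signal) against Rabac1 (horizontal axis, log2 signal) on each array of wt P4 and rd1 P4 (red circles, filled and open) and of wt P2 and rd1 P2 as labelled (blue squares, filled and open, with array numbers). wt P2 arrays 3 and 4 and rd1-labelled P2 arrays 2 and 3 sit together at Rabac1 signals of 9.88 to 10.40, and the other 4 P2 arrays at or below 8.40, while all 4 wt P4 arrays are at 11.65 or more for Pde6b.

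The 33 measured genes of rod phototransduction and the outer segment (brightest probe set of each), with the 22 called higher, had a median difference of 1.12 against -0.06 over 12393 genes, of which 9.41% were called higher and 7.79% lower. In 23 of the 33 every wt P4 array exceeded all 8 P2 arrays, against 6.55% of all genes. These shares of all genes, and 15.4% with every wt P4 array below all 8, stand beside the counts of every list below. The mean level of the list was 9.03, 9.01, 9.57 and 9.09 on the wt P4 arrays, and 8.01, 8.00, 7.90 and 8.13 on the wt P2 arrays. Array 3 of wt P4 was the highest, and without it 18 of the 33 were called higher.

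Sag encodes rod arrestin, which helps to end the light response. Its signal was 12.48, 12.70, 13.01 and 12.55 at wt P4, and 10.85, 10.96, 10.49 and 10.57 at wt P2. All 4 wt P4 arrays lay above all 8 P2 arrays, and the difference of 1.97 (SE 0.13, 3.91-fold) had the smallest adjusted p of the named genes (8.1e-11, limma). Cnga1, the alpha subunit of the rod cGMP-gated channel, was 8.11, 8.40, 9.38 and 8.26 at wt P4, and 5.47, 5.96, 4.80 and 5.82 at wt P2. It was 8.15-fold higher (3.03, SE 0.30, adjusted p = 9.84e-08, limma), with array 3 the highest at P4. Its wt P2 array 3 lay under the highest Bacillus control signal. Gngt1, the gamma subunit of rod transducin, was 11.24, 11.63, 12.25 and 11.61 at wt P4, and 9.81, 9.58, 8.72 and 9.01 at wt P2. Its difference was 2.40 (SE 0.22, adjusted p = 4e-08, limma), and 3 of its 4 probe sets were called higher. It overlapped no P2 array, which its place among the 12 largest rises given below required.

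Pde6b rose by 3.55 (SE 0.49, 11.7-fold, adjusted p = 1.21e-05, limma), the largest difference of the list, but its P2 level was not 1 level. Against wt P2 arrays 3 and 4 alone, on which it was high, the difference was 2.30, and against arrays 1 and 2 alone 4.81, both called. The lowest wt P4 value of 11.65 lay above the highest of all 8 P2 values, 9.76, which the rule for the 12 largest rises required. Among the other members, Rdh12, a retinol dehydrogenase of photoreceptor inner segments, was 8.42, 7.76, 9.40 and 8.31 at wt P4 and 6.65, 6.57, 6.16 and 5.69 at wt P2, a difference of 2.21. Mak, a kinase of the photoreceptor cilium, was 10.52, 10.76, 10.77 and 10.94 at wt P4 and 9.26, 9.35, 9.23 and 9.23 at wt P2, a difference of 1.48. Prom1, a membrane protein of nascent outer segment discs, was 12.29 to 12.77 at wt P4 and 10.81 to 11.36 at wt P2, a difference of 1.37. These 3 genes were called, and their wt P4 arrays lay above all 8 P2 arrays.

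The other rod genes called spread from 0.48 for Rbp3, the retinoid carrier between photoreceptors and pigment epithelium, to 1.89 for Gnat1, the alpha subunit of rod transducin. Between them were Cngb1 (1.84) of the rod channel, Rp1 (1.82) of the outer segment axoneme, Guca1a (1.70) and Rcvrn (1.12), calcium sensors of photoreceptors, Pde6g (1.39), the inhibitory phosphodiesterase subunit, and Rom1 (1.06), a disc rim protein. The 11 genes that were not called included Prph2, another disc rim protein, with 1.95, and Gnb1, the transducin beta subunit, with 1.38, as well as Pde6a (-0.02), Gucy2e (-0.03), Slc24a1 (-0.03) and Rgs9 (-0.23), parts of the catalytic, cyclase, exchanger and shut-off steps. The 33 members thus covered the span of -0.23 to 3.55. In 3 of the 33 both group means lay at background, where a change could hardly be measured.

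Of 11 photoreceptor transcription factors, 4 were called higher and none lower, against 9.41% and 7.79% of all genes, with a median of 0.13. Nrl, which directs photoreceptor precursors to the rod fate, was 12.86, 12.71, 13.10 and 12.95 at wt P4 and 11.85, 12.14, 11.70 and 11.88 at wt P2. It rose by 1.01 (SE 0.11, 2.01-fold, adjusted p = 7.16e-07, limma). Crx, which activates rod and cone genes, was 12.63, 12.25, 12.80 and 12.65 at wt P4 and 11.81, 12.02, 11.76 and 11.92 at wt P2, a difference of 0.71. Mef2d, a cofactor of Crx at photoreceptor enhancers, differed by 0.52, and Otx2, which acts upstream of Crx, by 0.34. All 4 lay above every P2 array, although the call of Mef2d was lost without wt P4 array 3 or wt P2 array 3, and that of Otx2 without wt P4 array 4 or wt P2 arrays 3 or 4. The 2 probe sets of Mef2d were called in opposite directions. The wt P4 to wt P2 differences of Rxrg (0.37), Neurod1 (-0.19), Thrb (-0.27) and Rorb (-0.40) were not called. In 3 of the 11 factors both group means lay at background.

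Cone genes were higher in 6 of 9 cases and lower in none, against 9.41% and 7.79% of all genes, with a median of 0.65. Pde6h, the inhibitory subunit of the cone phosphodiesterase, was 9.77, 9.89, 10.28 and 10.00 at wt P4 and 8.68, 8.92, 8.03 and 8.55 at wt P2, a difference of 1.44 (SE 0.17). Gnat2, the alpha subunit of cone transducin, rose by 0.65, and Kcne2, a potassium channel subunit listed here with cone genes, by 1.37. Opn1sw, the short-wave cone opsin, was 11.11, 11.11, 11.35 and 10.95 at wt P4 and 10.60, 11.01, 9.92 and 10.17 at wt P2. It was called (0.70), but its groups overlapped, and an exact two-sided permutation test over the 4 and 4 arrays gave p = 0.0571, where 0.0286 is the smallest p possible. Without both wt P2 arrays 3 and 4 the cone count was 2.

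**Figure D3:**
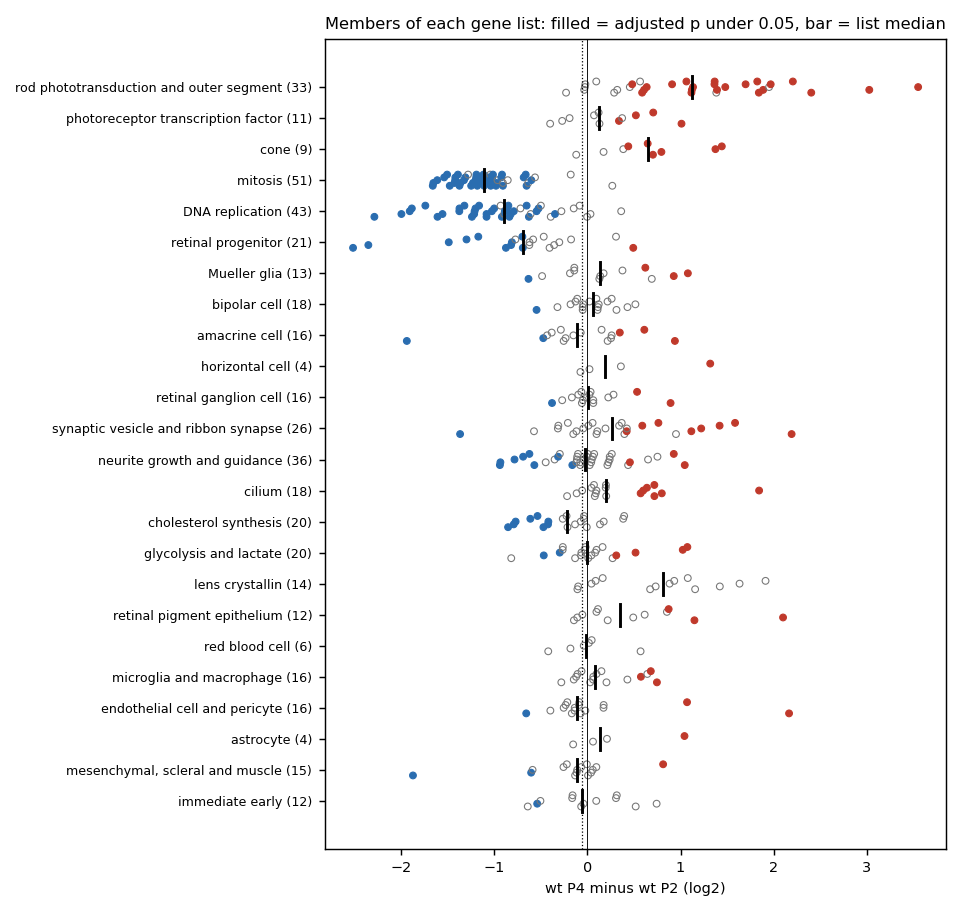
Differences between wt P4 and wt P2 (horizontal axis, log2) of the measured members of 24 gene lists (rows, with the number measured), filled red or blue where called higher or lower and open where not called; the bar is the list median, the dotted line the median over all genes (-0.06). Rod genes lie to the right with a median of 1.12, and mitosis, DNA replication and retinal progenitor genes to the left with -1.11, -0.89 and -0.69.

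The mitosis list fell almost as a whole. Of 51 genes, 42 were called lower and none higher, the median difference was -1.11, and in 46 genes every wt P4 array lay below all 8 P2 arrays, against 15.4% of all genes. The mean level of the list was 9.08, 9.03, 7.81 and 8.79 on the wt P4 arrays and 9.79, 9.64, 9.82 and 9.79 on the wt P2 arrays. Array 3 of wt P4 was the lowest, and without it 26 genes were called, with a median of -0.84. Without wt P2 arrays 3 and 4 together 20 were called, with a median of -1.04, while leaving out arrays 1 and 2 gave 33. No alternative called a mitosis gene higher, and against a fold of 1.5 by limma's treat none of the 51 was called.

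Plk1, the kinase that drives entry into and exit from mitosis, was 8.29, 8.14, 6.60 and 7.81 at wt P4 and 8.94, 8.87, 9.52 and 9.65 at wt P2. Its difference was -1.54 (SE 0.27, adjusted p = 0.000195, limma), and no wt P4 array reached a P2 array. Bub1b, a spindle checkpoint kinase, was 8.65, 8.73, 8.19 and 8.43 at wt P4 and 9.37, 9.34, 9.68 and 9.30 at wt P2, a difference of -0.92. Kif2c, a microtubule-depolymerising motor at centromeres, differed by -1.61 and Nek2, a centrosomal kinase, by -1.18. The 42 called genes spanned -0.60 (Cks1b) to -1.66 (Aurkb, the kinase of the chromosomal passenger complex). Among the 9 not called were Top2a (-1.28), Mki67 (-0.97), the antigen widely used as a mark of cycling cells, and Cdk1 (-0.85). Pttg1, the securin, had 0.27.

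DNA replication genes were lower in 31 of 43 cases and higher in none, with a median of -0.89, where 7.79% of all genes were called lower. Below all 8 P2 arrays lay 31 of the 43, against 15.4% of all genes. Mcm3 and Mcm6 are subunits of the replicative helicase. Mcm3 was 8.75, 8.33, 7.77 and 8.36 at wt P4 and 9.97, 9.73, 10.42 and 10.05 at wt P2, a difference of -1.74 (SE 0.24). Mcm6 was 10.65, 10.59, 9.58 and 10.23 at wt P4 and 11.55, 11.59, 11.79 and 11.62 at wt P2, a difference of -1.37 (SE 0.18). Both were lowest on wt P4 array 3 and overlapped no P2 array. Cdc6, which loads the helicase onto origins, had the largest difference of the list, -2.29 (4.88-fold): it was 6.13, 5.59, 3.78 and 5.10 at wt P4 and 7.47, 7.68, 7.32 and 7.27 at wt P2. Its wt P4 array 3 lay under the highest Bacillus control signal. Pcna, the sliding clamp, differed by -0.89, at a level of 12.14 to 12.73 at wt P4 and 13.13 to 13.63 at wt P2. Orc1 (-0.08), Orc6 (-0.00), Rfc3 (0.03) and Rpa3 (0.36) were among the 12 not called. In 2 of the 43 both group means lay at background.

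Of 21 progenitor genes, 10 were called lower and 1 higher, against 7.79% and 9.41% of all genes, with a median of -0.69. Atoh7, the transcription factor that gives progenitors competence to form ganglion cells, was 5.13, 6.35, 4.51 and 5.67 at wt P4 and 7.43, 7.70, 8.22 and 8.38 at wt P2. It was 5.72-fold lower (-2.52, SE 0.33, adjusted p = 7.03e-06, limma). Fgf15, a growth factor made by retinal progenitors, was 6.72, 6.09, 4.54 and 6.01 at wt P4 and 8.07, 7.41, 8.81 and 8.49 at wt P2, a difference of -2.35. Foxn4, which supports amacrine and horizontal cell fates, differed by -1.49, and Lhx2, a homeobox factor of progenitors and Müller glia, by -0.81. Each of these 4 lay below every P2 array. Ccnd1, the D-type cyclin of retinal progenitors (-1.30), Olig2 (-1.17), Neurog2 (-0.87), Dll1 (-0.82), Sox2 (-0.70) and Hes6 (-0.69) made up the rest of the called falls. Btg2, an antiproliferative gene, was the 1 called higher (0.49), a call lost without any 1 of the 8 arrays except wt P2 array 3, and Pax6 (-0.47), Hes1 (-0.58), Hes5 (-0.62) and Notch1 (-0.36) were not called.

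**Figure D4:**
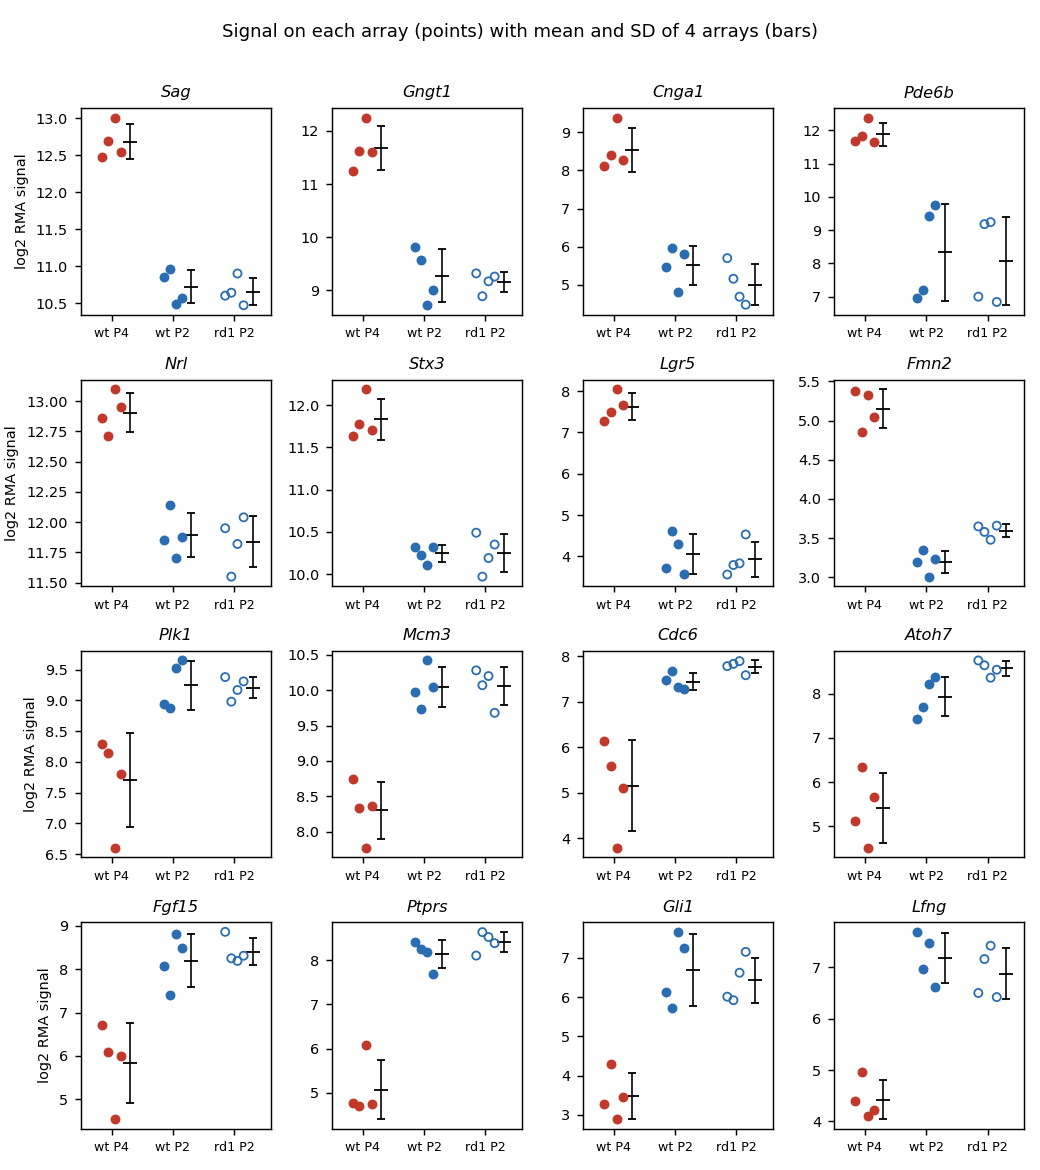
Signal (vertical axes, log2) of 16 genes on each wt P4, wt P2 and rd1-labelled P2 array (points, left to right in each panel), with the mean and SD of 4 arrays beside them; vertical axes differ between panels and do not start at 0. In all 16 panels the 4 wt P4 arrays lie outside the range of all 8 P2 arrays, above it for Sag, Gngt1, Cnga1, Pde6b, Nrl, Stx3, Lgr5 and Fmn2 and below it for the other 8. For the genes among the 12 largest rises or falls, the rule for that set required this. They are Gngt1, Cnga1, Pde6b, Lgr5, Cdc6, Atoh7, Fgf15, Ptprs, Gli1 and Lfng.

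The 12 largest measured rises outside the range of all 8 P2 arrays included probe sets that lay at background at P2, so their order is not settled. Lgr5, the R-spondin receptor of the Wnt pathway, was 7.28, 7.50, 8.05 and 7.67 at wt P4 and 3.71, 4.62, 4.30 and 3.58 at wt P2, a measured difference of 3.58 (SE 0.26, adjusted p = 7.86e-10, limma). Its wt P2 values lay under the highest Bacillus control signal of 4.89, and set against that signal its wt P4 mean was at least 6.64-fold higher. Pde6b, Cnga1 and Gngt1 of the rod list were also among the 12, as were a dimmer probe set of Mak (2.31) and one of Rdh12, whose measured 2.63 was at least 2.74-fold by the same bound. Nxnl1, which encodes the rod-derived cone viability factor, was 7.52, 7.30, 8.32 and 7.65 at wt P4 and 5.26, 5.53, 4.19 and 6.03 at wt P2, a difference of 2.44. On wt P2 array 3 it lay under the highest Bacillus control signal. Ppargc1b, a coactivator of mitochondrial genes, was 8.40, 8.18, 9.04 and 8.37 at wt P4 and 5.25, 5.78, 6.72 and 6.00 at wt P2, a difference of 2.56. Ttc39b, a tetratricopeptide repeat protein, had a measured difference of 2.49 and was at least 1.67-fold higher, and Samsn1, an adaptor with SH3 and SAM domains, 2.23 and at least 2.95-fold.

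The calls of the remaining pair of the 12 were each lost when 2 arrays were left out together. Napb, which encodes beta-SNAP of membrane fusion, was 7.17, 6.82, 7.23 and 7.04 at wt P4 and 6.41, 6.07, 2.58 and 2.07 at wt P2. It was low on the same P2 arrays on which Pde6b was high, and without wt P2 arrays 3 and 4 its difference was 0.82 (adjusted p = 0.509, limma), against 2.79 with all arrays (adjusted p = 0.00762). The call was also lost without either of these arrays alone. All 5 of its probe sets were called higher. Malat1, a nuclear long non-coding RNA, was 10.96, 12.18, 10.53 and 12.39 at wt P4 and 9.06, 9.05, 9.55 and 9.19 at wt P2. Its highest values came from wt P4 arrays 2 and 4, the arrays with the high 18S signal. Without them the difference of 2.30 became 1.53 and was not called (adjusted p = 0.217, limma), and 1 of its 5 probe sets was called.

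Gli1, a transcription factor and target of the Hedgehog pathway, was among the 12 largest measured falls. It was 3.28, 4.30, 2.89 and 3.46 at wt P4, under the highest Bacillus control signal, and 6.12, 5.71, 7.66 and 7.25 at wt P2. The measured difference was -3.20 (SE 0.33, adjusted p = 1.9e-07, limma), and set against that signal Gli1 was at least 3.46-fold lower. Ptprs, a receptor tyrosine phosphatase, was 4.76, 4.70, 6.08 and 4.75 at wt P4 and 8.41, 8.26, 8.19 and 7.68 at wt P2, a difference of -3.06, with only wt P4 array 3 above the highest Bacillus control signal. Lfng, a glycosyltransferase that modifies Notch, was 4.39, 4.97, 4.11 and 4.22 at wt P4 and 7.69, 6.96, 7.48 and 6.62 at wt P2, a difference of -2.77. No wt P4 value of these 3 genes reached a P2 value, which the rule for naming the 12 falls required.

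Atoh7, Fgf15 and Cdc6 were also among the 12 largest falls. Lmnb1, a protein of the nuclear lamina, was 7.95, 7.75, 8.01 and 7.84 at wt P4 and 10.56, 10.00, 10.63 and 10.10 at wt P2, a difference of -2.44. Cenpb, a centromere-binding protein, was 2.25 to 2.36 at wt P4 and 3.72 to 5.20 at wt P2 (-2.37), so that both of its group means lay at the level of the Bacillus controls. Mvb12b, of the ESCRT-I sorting complex, was 5.87, 2.82, 5.29 and 4.39 at wt P4 and 7.92, 7.91, 6.90 and 6.25 at wt P2 (-2.65). Hipk2, a homeodomain-interacting kinase, was 5.76, 5.07, 5.83 and 4.55 at wt P4 and 8.26, 8.15, 7.67 and 6.76 at wt P2 (-2.40). Mvb12b and Hipk2 were lower on wt P2 arrays 3 and 4 than on arrays 1 and 2, and both kept their calls against either pair of P2 arrays. Mvb12b on wt P4 arrays 2 and 4, and Hipk2 on wt P4 array 4, lay under the highest Bacillus control signal. Lrr1, a substrate adaptor of a ubiquitin ligase (-2.34), and Mllt1, of the super elongation complex (-2.28), completed the 12.

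Synaptic vesicle and ribbon synapse genes were higher in 8 of 26 cases and lower in 1, Rph3a (-1.37), with a median of 0.27. Over all genes the shares were 9.41% and 7.79%. The call of Rph3a was lost without any 1 of wt P4 arrays 2 or 4 or wt P2 arrays 1 or 3. Stx3, the syntaxin of ribbon synapses, was 11.64, 11.78, 12.19 and 11.71 at wt P4 and 10.32, 10.23, 10.11 and 10.32 at wt P2, a difference of 1.59 (SE 0.14, adjusted p = 1.45e-08, limma). Pclo, a scaffold of the active zone, was 9.37, 9.04, 9.48 and 9.20 at wt P4 and 8.02, 8.10, 8.18 and 7.91 at wt P2, a difference of 1.22. Unc13b, a vesicle priming factor, rose by 1.12, and Cplx4, a complexin of photoreceptor ribbon synapses, had a measured 2.19, at least 2.95-fold because its wt P2 values lay at background. All 4 lay above every P2 array. Cacna1f, the calcium channel of photoreceptor terminals, differed by 1.42 and Snap25 by 0.76, both called, whereas Syt1 (-0.31), Bsn (-0.32), Syp (0.42) and Vamp2 (0.10) were not.

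Of 18 cilium genes, 7 were called higher and none lower, against 9.41% and 7.79% of all genes, with a median of 0.20. Fam161a, a microtubule-binding protein of the connecting cilium, was 6.80, 6.82, 7.24 and 6.53 at wt P4 and 4.52, 4.91, 5.51 and 5.09 at wt P2, a difference of 1.84 (SE 0.23). On wt P2 array 1 it lay under the highest Bacillus control signal. Ttc8 (0.72) and Bbs9 (0.64), both of the BBSome, and Ahi1 (0.60), of the transition zone, were called, as were Cep290 (0.80), Bbs2 (0.72) and Rpgr (0.57). None of the 6 intraflagellar transport genes measured, Ift20, Ift57, Ift88, Ift122, Ift140 and Ift172, was called (-0.12 to 0.20).

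Cholesterol synthesis genes were lower in 8 of 20 cases and higher in none, against 7.79% and 9.41% of all genes, with a median of -0.22. Without wt P4 array 4 the count was 4, without wt P4 array 3 or wt P2 array 1 it was 5, and by treat 0. Sqle, squalene epoxidase, was 9.64, 9.44, 9.26 and 9.37 at wt P4 and 10.13, 10.04, 10.37 and 10.33 at wt P2, a difference of -0.79. Fdft1, squalene synthase, differed by -0.77, Idi1, isopentenyl diphosphate isomerase, by -0.61 and Srebf2, the transcription factor of the pathway, by -0.85. Srebf2 overlapped the rd1-labelled P2 arrays, which gave 7.92, 9.31, 9.28 and 7.98 against 8.51, 8.23, 8.39 and 8.27 at wt P4. In glycolysis, 4 of 20 genes were higher and 2 lower, against 9.41% and 7.79% of all genes, with a median of -0.00. Pfkp, a phosphofructokinase, was 10.30, 10.24, 10.21 and 10.35 at wt P4 and 9.15, 9.55, 8.88 and 9.23 at wt P2, a difference of 1.07. The aldolases Aldoa and Aldoc differed by 0.52 and 1.02 and Ldha, lactate dehydrogenase A, by 0.31, and each exceeded all 8 P2 arrays, while Pfkl (-0.47) and Slc2a1 (-0.30) were lower, both lost without any 1 of wt P4 arrays 2 or 4 or wt P2 array 4. Ldha was lost without wt P2 array 3.

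Neurite growth and guidance genes were called higher in 3 of 36 cases and lower in 8, with a median of -0.02, against 9.41% and 7.79% of all genes. The lower count was 4 without any 1 of wt P4 array 2, wt P4 array 4 or wt P2 array 3, 5 without wt P4 array 3 and 1 without wt P2 arrays 3 and 4 together. Plxna2, a semaphorin receptor, differed by 1.05, the ephrins Efnb1 and Efna2 by -0.94 and -0.93 and Sema6a, a semaphorin, by -0.62. Efnb1 and Plxna2 lay outside the range of all 8 P2 arrays, and Efna2 and Sema6a overlapped the rd1-labelled ones.

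Markers of other retinal neurons and glia moved little as lists. Their counts stand beside 9.41% of all genes called higher and 7.79% lower. Of 18 bipolar cell genes 1 was called, Irx6, a homeobox factor (-0.55, lost without any 1 of wt P4 array 4 or wt P2 arrays 3 or 4), with a median of 0.06, and 8 of the 18 lay at background at both ages. Of 16 amacrine cell genes 3 were higher and 2 lower, with a median of -0.11. Ptf1a, the factor that commits precursors to amacrine and horizontal fates, was 7.71, 7.10, 5.89 and 7.21 at wt P4 and 8.77, 8.52, 9.29 and 9.08 at wt P2, a difference of -1.94 (SE 0.32). Tfap2a, of amacrine cells, differed by -0.47, a call kept in 3 of 8 refits without 1 array (lost without wt P4 arrays 2 or 3 or wt P2 arrays 1, 2 or 4) and lost after median centring, whereas Ebf3, a transcription factor, and Slc6a9, the glycine transporter of amacrine cells, were higher by 0.94 and 0.61. Calb1, calbindin, of horizontal and amacrine cells, rose by 1.32 as the 1 call among 4 horizontal cell genes.

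Of 16 ganglion cell genes 2 were higher, Nefh, the heavy neurofilament (0.89), and Slc17a6, a vesicular glutamate transporter (0.53), and 1 lower, Pou4f3, a POU-domain factor (-0.38), with a median of 0.01. Pou4f3 lay at background at both ages and kept its call in 3 of 8 refits without 1 array (lost without any wt P4 array or wt P2 array 4), as did Nefh (lost without wt P4 arrays 1 or 3 or wt P2 arrays 1, 2 or 4). Slc17a6 was lost without wt P4 array 3. The arrays of Nefh overlapped between wt P4 and wt P2 (exact two-sided permutation p = 0.0857). Of 13 Müller glia genes 3 were higher and 1 lower, with a median of 0.14. Rlbp1, a retinaldehyde carrier of Müller glia, was 11.15, 10.66, 11.36 and 10.72 at wt P4 and 10.02, 10.29, 9.66 and 10.21 at wt P2 (0.93). Car14, a carbonic anhydrase, rose by 1.08, Apoe by 0.62, and Dkk3, a Dickkopf family protein, differed by -0.63, and Apoe and Dkk3 overlapped the rd1-labelled P2 arrays. The call of Dkk3 was kept in 2 of 8 refits without 1 array, those without wt P4 array 1 and wt P2 array 4, and that of Apoe was lost without wt P4 array 3 or wt P2 array 1.

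Genes of tissues next to the retina were also followed, beside the same shares of all genes, 9.41% called higher and 7.79% lower. Lens crystallins averaged 5.92, 5.55, 6.09 and 4.31 on the wt P4 arrays and 3.99, 3.73, 5.15 and 6.00 on the wt P2 arrays. None of 14 was called, the median was 0.81, and the median was -0.15 without wt P2 arrays 1 and 2 but 1.68 without arrays 3 and 4. Leaving out wt P4 array 4 gave 1.30 with 1 gene called, leaving out wt P2 array 4 gave 1.27 and wt P2 array 2 0.38, and array quality weights gave 1.62 with 6 called higher. Cryba1 was 8.26, 7.85, 8.54 and 4.54 at wt P4 and 3.46, 3.57, 6.94 and 7.58 at wt P2, and Cryab 6.95, 6.17, 7.80 and 4.34 at wt P4 and 4.86, 4.13, 4.46 and 6.12 at wt P2. Pigment epithelium genes averaged 5.55 to 5.71 on the wt P4 arrays and 4.88 to 5.41 on the wt P2 arrays, with 3 of 12 called higher: Ttr, transthyretin (2.10), Rgr, an opsin of the visual cycle (1.15), and Tyr, tyrosinase (0.87). Their defining marker Rpe65 differed by 0.10 and was not called, the count was 5 without wt P2 array 4, the call of Rgr was lost without wt P4 array 2 or 3, and 1 probe set of Tyr was called higher and 1 lower. The part of pigment epithelium in the rise of Rlbp1 and of retinoid genes such as Rdh12 was not tested.

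Of 16 endothelial and pericyte genes 2 were higher and 1 lower, against 9.41% and 7.79% of all genes. Higher were Rgs5, a pericyte regulator of G protein signalling (2.17), and Esam, an endothelial adhesion molecule, and lower was Pdgfrb (-0.66). The wt P2 values of Esam lay at background, so its measured 1.07 was at least 1.15-fold. Esam was lost without wt P4 array 4 or wt P2 array 3, and Pdgfrb without any 1 of wt P4 arrays 2 or 4 or wt P2 arrays 3 or 4. Rgs5 was 9.10, 9.20, 9.97 and 9.36 at wt P4 and 7.80, 7.98, 5.49 and 7.71 at wt P2. Of 16 microglia and macrophage genes 3 were higher, Tyrobp (0.75), Lyz2 (0.68) and C1qa (0.57), with list levels of 4.85 to 5.01 at wt P4 and 4.54 to 4.93 at wt P2, and all 3 overlapped the rd1-labelled P2 arrays. Without any 1 of wt P4 arrays 2 or 3 or wt P2 arrays 1 or 3, 1 was called, and C1qa and Lyz2 kept their calls in 3 and 4 of 8 refits without 1 array. The wt P2 values of Lyz2 lay at background, so its measured 0.68 was at least 1.44-fold. Of 4 astrocyte genes 1 was called, Pdgfra (1.04, with overlap with the rd1-labelled P2 arrays), while Gfap (-0.15) and S100b (0.21) were not. Of 15 mesenchymal, scleral and muscle genes 11 lay at background, and Fbln1, an extracellular matrix protein, was lower (-1.87), Myh8 lower (-0.60, lost without any 1 of wt P4 arrays 2 or 4 or wt P2 arrays 3 or 4) and Actc1 higher (0.81). None of 6 red blood cell genes was called, and 1 of 12 immediate early genes, Dusp1 (-0.54), which kept its call in 3 of 8 such refits (lost without wt P4 arrays 3 or 4 or wt P2 arrays 1, 3 or 4). The part of these tissues in the differences was not tested.

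The change was compared with that of rd1 retina over the same ages. In rd1, rod genes had a median P4 minus P2 difference of 1.37 and mitosis genes of -1.17, against 1.12 and -1.11 in wt. The test of the difference between both changes called 1 probe set (0.00442%), with 1564 at an unadjusted p under 0.05. It was 1420747_at, which has no gene in the annotation used: 5.60, 5.17, 4.83 and 5.09 at wt P4 against 3.56, 3.72, 4.07 and 3.86 at wt P2, and 3.56, 3.53, 3.42 and 3.73 at rd1 P4 against 3.70, 4.04, 4.08 and 4.05 on the rd1-labelled P2 arrays. The measured change was larger in wt by 1.78 (SE 0.28, adjusted p = 0.0157, limma). All its wt P2, rd1 P4 and rd1-labelled P2 values, and wt P4 array 3, lay under the highest Bacillus control signal of 4.89. Its wt P4 mean was 5.17, so the size of this difference is not settled. No probe set was called without any 1 of wt P4 array 1, wt P2 array 1, rd1 P4 arrays 2 or 3, or rd1-labelled P2 array 4. Zfhx3, a zinc finger homeobox factor, followed with 1.72 (adjusted p = 0.0558, limma): its change was -0.22 in wt, not called, and -1.94 in rd1. Ctr9, of the Paf1 transcription complex, was 6.92, 6.56, 6.45 and 6.52 at wt P4 and 5.50, 5.91, 5.05 and 4.90 at wt P2. Its change of 1.27 in wt stood against 0.08 in rd1 (adjusted p of the difference 0.239, limma). Since 4 of the 8 P2 arrays go against their labels in Pde6b and Rabac1, this comparison rests on labels in doubt. It also takes in rd1-labelled P2 arrays 1 and 4, which had the high Gapdh control values.

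The next interval differed more. The P4 to P6 change in wt, minus the P2 to P4 change, was called higher in 103 probe sets (0.455%) and lower in 309 (1.37%), 412 in all, with 4696 at an unadjusted p under 0.05. Both changes share the wt P4 arrays, so a single odd array moves both in opposite directions: without wt P4 array 1 the count was 85. Fmn2, a formin that nucleates actin filaments, was 5.38, 4.85, 5.33 and 5.05 at wt P4 and 3.20, 3.35, 3.01 and 3.23 at wt P2, and averaged 3.87 at P6 and 2.66 at P8. Its wt P2 values lay at background, so that the measured P2 to P4 rise of 1.96 was at least 1.2-fold. The change then turned into a fall, a difference between both changes of -3.24 (adjusted p = 3.8e-06, limma). Arhgap31, a GTPase-activating protein for Rac and Cdc42, rose by 2.13 and averaged 8.01 at P6 and 5.67 at P8, with a difference of -2.52. Lgr5 averaged 8.39 at P6 and 7.96 at P8, so its change was smaller after P4 (-2.81, adjusted p = 0.0016, limma).

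Bipolar cell genes, of which 1 was called between P2 and P4, had a median of 1.09 between P4 and P6, and in 5 of 18 the P4 to P6 change was above the P2 to P4 change by the test of their difference, where 0.452% of all genes were. Isl1, a LIM homeobox factor of ON bipolar and other inner retinal cells (here by the dimmer of its 2 probe sets), was 8.75, 8.73, 9.20 and 8.90 at wt P4 and 9.09, 8.77, 9.47 and 9.01 at wt P2, and averaged 11.33 at P6. Vsx1, a homeobox factor of cone bipolar cells, was 3.56 to 3.83 at wt P4 and 3.64 to 4.13 at wt P2, at background at both ages, and averaged 6.68 at P6. Their differences between both changes were 2.63 and 3.17 (adjusted p = 0.000116 and 0.000137, limma). Fezf2, a zinc finger factor, had 1.56, and Heph, the ferroxidase hephaestin, -2.23 after a P2 to P4 difference of 0.23 that was not called. Mitosis genes had a median of -2.88 between P4 and P6, and in 20 of 51 the P4 to P6 change was below the P2 to P4 change by the same test, against 1.71% of all genes. Rod genes had a median of 1.16 in the second interval, in 1 of 33 above and in 1 below the first by that test.

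**Figure D5:**
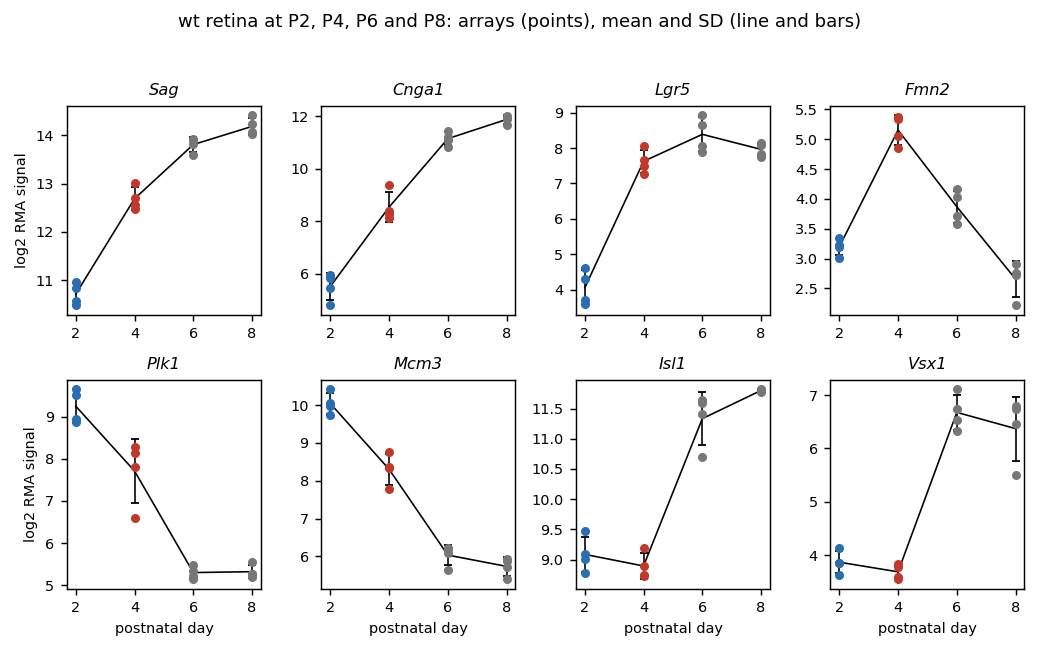
Signal (vertical axes, log2) of 8 genes in wt retina against postnatal day (horizontal axes, days), with single arrays as points (blue P2, red P4, grey later) and the mean and SD of 4 arrays as line and bars; vertical axes differ between panels and do not start at 0. Sag and Cnga1 rise and Plk1 and Mcm3 fall in both of the first intervals, Lgr5 and Fmn2 are called higher between P2 and P4 but not between P4 and P6, and Isl1 and Vsx1 stay level until P4 and are 2.44 and 2.98 higher at P6.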

How the data were processed

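RNA of pooled whole retinas was hybridised to Affymetrix MOE430A arrays. The values analysed are log2 signals per probe set that the authors made by Robust Multiarray Average (RMA: background correction, quantile normalization and summarization) and deposited in 1 table of 32 arrays. No source used here gives the software version. Quantile normalization brings the arrays towards a common distribution, and the deposited medians of the 8 arrays were 6.61 to 6.75. A second file with the authors' own fold changes and p-values was not used.

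The 64 control probe sets were left out. A linear model over the 8 groups (32 arrays, 24 residual degrees of freedom) was fitted with limma 3.58.1 in R 4.3.3, with moderated variances that follow the mean signal, with the Benjamini-Hochberg adjustment applied across 22626 probe sets. The script was tested on simulated data. Differences between changes were contrasts of the same model. With 4 arrays per group, the number of arrays limits the precision. Probe sets were named from the platform annotation: 20380 had 1 symbol, 691 several and 1555 were not listed. In counts and medians of lists each gene is given by its brightest probe set over the 32 arrays, and named values of Isl1 and of the largest rises can come from another, as stated there. Where every array of an age lay at or under the highest Bacillus control signal, the other age's mean over that signal gives a lower bound (at least N-fold). The members and the gene lists were chosen with earlier results of these data known.

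The genes to name were, by rule, the 12 largest called rises and falls outside the range of all 8 P2 arrays, the 4 members of each list with the smallest p-values, Pde6b and Rabac1, and the 6 genes with the smallest p-values in each difference between changes, 127 in all. Other genes named were chosen after their values were seen, and rule genes that were not called are mostly left unnamed. Promoters came from the RefSeq table of GRCm38.p6, and the motif positions were found by letter match on both strands. Alternatives were other variance settings, array weights, a replicate block, other scalings, a filter on dim signals, limma's treat with a fold of 1.5, both P2 groups pooled, and each array left out. The pairs of wt P2 arrays 1 and 2, wt P2 arrays 3 and 4, and wt P4 arrays 2 and 4 left out together, and the filter on probe sets at background, were chosen after seeing the data.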

Additional observations from a re-analysis of the deposited data

Results flagged for a closer look

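In groups of 4 arrays, 1 array stood apart from the others by Dixon's criterion in 8 of 258 groups examined, where chance gives about 1 in 20. On wt P4 array 3 the mean level of the rod list was 9.574, against 9.011 to 9.086 on the other wt P4 arrays, that of the cone list 8.288, against 7.872 to 7.929, and the signal of Ptprs 6.08, against 4.70 to 4.76. A dimmer probe set of Mak was low on wt P4 array 1, with 8.09 against 8.43 to 8.48. On wt P2 array 3, Rgs5 was 5.49, against 7.71 to 7.98, and Pdgfra 7.59, against 8.32 to 8.47. Cplx4 was 4.89 on wt P2 array 1, against 3.97 to 4.12, and Pou4f3 5.33 on wt P2 array 4, against 4.46 to 4.59.

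The P4 to P6 change in wt differed from the P2 to P4 change in 412 probe sets by limma. Among the named genes, the second change was above the first for Vsx1 (3.165), Isl1 (2.631), Cenpb (2.403), Gli1 (2.282), Ptprs (2.03) and Fezf2 (1.56). Cenpb, Gli1 and Ptprs were named for their large P2 to P4 falls. At wt P4 they lay under the highest Bacillus control signal of 4.89, except Ptprs on array 3. A further fall could hardly be measured for them, so their values do not show a change of pace. It was below the first for Fmn2 (-3.241), Lgr5 (-2.811), Arhgap31 (-2.518), Heph (-2.23), Ctr9 (-1.37), Ebf3 (-1.342), Pclo (-1.313), Pfkp (-1.212), Sag (-0.8508) and Otx2 (-0.7079). The P2 to P4 change differed between wt and rd1 in 1 probe set.

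The 18S ribosomal RNA control, which is no part of the comparison, was 6.07 on wt P4 array 2 and 8.90 on wt P4 array 4, above all 4 wt P2 arrays (4.50 to 5.44).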

How the results depend on the processing

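The 4 doubted P2 labels, the spread among the P2 arrays and the dim end of the scale limit these results. Of 93 named probe sets called, 74 were called in all 8 refits without 1 wt P4 or wt P2 array, and 40 under every alternative run. Against 1871 probe sets higher and 1923 lower, array quality weights gave 3071 and 3741, a fold of 1.5 or more 1081 and 1107, and limma's treat against that fold 97 and 96. Leaving out wt P2 arrays 3 and 4 gave 989 and 752, and leaving out wt P4 arrays 2 and 4 gave 1096 and 863. With both P2 groups pooled 4326 were lower. Leaving out 1 array gave 1269 to 1837 higher and 1151 to 2007 lower, the fewest in both without wt P2 array 3. Higher calls were 49.3% of all calls, 58.7% after median centring (2029 and 1426), 40.4% with the 8 arrays alone, 54.8% without probe sets at background and 54.2% without the 30% dimmest. The causes of these shifts were not tested, beyond the fewer arrays or probe sets in some of them.

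The replicate numbers did not pair the samples: deviations of wt P4 and wt P2 arrays of the same number correlated at 0.15, -0.16, -0.13 and 0.05. With the replicate block, 2045 were higher and 3006 lower, and with the block on the 8 arrays alone 1150 and 1788.

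For the difference between wt and rd1, 1 probe set was called. Array quality weights called 29, a further quantile normalization 2, and leaving out 1 array 0 to 4, with 0 without the 30% dimmest and 0 by treat. For the difference between intervals the count of 412 became 3221 with array quality weights and 17 by treat, and leaving out 1 array gave 85 (without wt P4 array 1) to 507. It was 102 without wt P4 array 2, 144 without wt P4 array 4, 255 without wt P2 array 3 and 266 without wt P6 array 2. Among single genes not called, Rabac1 reversed to -0.0693 without wt P2 arrays 1 and 2, and Fezf2 to 0.0166 without arrays 3 and 4.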
